A study of Mus musculus with 32 samples.

Results

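Interferon-stimulated genes are the antiviral genes that cells switch on after interferon is sensed. The set described here was given as a list of 38 mouse genes, drawn up by name with earlier results of these arrays known, and a member was used where the platform annotation paired a probe set with its symbol alone. Of the 38 genes, 35 had such a probe set, out of 19938 genes measured in this way. Isg15 and Gbp2 were represented only by probe sets that share a second symbol, and Ifi44 was not in the annotation used, so these 3 genes were not analysed here.

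The arrays (Affymetrix Mouse Gene 1.0 ST) each held the RNA of 1 neurosphere culture, and 32 cultures from mouse brain tumours were measured. Those tumours had formed in the brain after transplantation of neurosphere cells from the wall of the postnatal lateral ventricle, to which oncogenes had been added. Tumour cells that still expressed the added cassette with its fluorescent marker were sorted and grown again as neurospheres. All mice that supplied the cells were of strain B6;129-Trp53tm1Brd, so every group, the single-oncogene ones included, carries that p53-deficient background, and the labels give no age. The cells that received HRAS and MYC together (HRAS+MYC, 7 arrays) formed tumours labelled AT/RT-like, after the atypical teratoid/rhabdoid tumour of children. Cells with HRAS alone (5 arrays) or HRAS and Bmi1 (HRAS+Bmi1, 2 arrays) formed gliomas. Cells with MYC alone (6 arrays), MYC and Ezh2 (MYC+Ezh2, 5 arrays) or MYC and Bmi1 (MYC+Bmi1, 3 arrays) formed PNETs, which are primitive neuroectodermal tumours. In 2 further groups the oncogenes were added one after the other: MYC was added to sphere cells of a glioma (HRAS then MYC, 2 arrays), and HRAS to sphere cells of a PNET (MYC then HRAS, 2 arrays), and the arrays hold the secondary brain tumours that followed. These 2 groups thus passed through an additional tumour, which cannot be told apart from the added oncogene. The GTPase HRAS switches on the MAP kinase cascade, MYC is a transcription factor, and both Ezh2 and Bmi1 belong to Polycomb complexes, which repress genes. The labels do not say whether the cultures of a group derive from different animals, so every p-value below measures the spread between arrays, which may be partly technical. Values are log2 expression levels, and a gene is said to have risen or fallen where the adjusted p of the limma test over all 19938 genes was under 0.05.

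Type I interferons signal through the receptor pair Ifnar1 and Ifnar2 and the kinases Jak1 and Tyk2 to a complex that holds STAT2 and IRF9 and binds the interferon-stimulated response element. Interferon gamma acts through the gamma-activated site, and IRF1 and IRF7 are transcription factors that are both targets and amplifiers of the response. The induced genes include sensors of foreign RNA, proteins that bind or degrade RNA, blockers of virus entry and release, and enzymes that attach or remove ubiquitin, ISG15 or ADP-ribose.

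The response element is visible in the promoter windows of several members. RefSeq windows of 300 bases (build GRCm38.p6, 250 before to 50 after the start of the gene) were matched for 26 of the 35 members. Its core, GAAA and a second GAAA with any 2 bases between them (TTTC and TTTC when read on the other strand), was searched on both strands and found in 12 of these 26 members (46.15%), against 1079 of 27025 genes with a window (3.99%). The palindromic core of the gamma-activated site, TTCNNNGAA, was found in 7 of the 26 members (26.92%), against 2582 of 27025 genes (9.55%). Some matches overlap one another: in Gbp3, Oas1a and Bst2 pairs of matches to the response element share bases, and in Bst2 and Ifitm3 a TTCNNNGAA match overlaps one of them. Below, capitals mark the response element core in Ifit1 and Stat2 and TTCNNNGAA in Irf1. Ifit1 and Stat2 are shown as a target with the pair of closely spaced elements and as a subunit of the factor that binds them. The Irf1 window holds only the gamma-activated core and was added after the values were seen. All 3 lie on the plus strand, at chr19:34640639-34640938 (Ifit1), chr10:128270248-128270547 (Stat2) and chr11:53769764-53770063 (Irf1).
Ifit1: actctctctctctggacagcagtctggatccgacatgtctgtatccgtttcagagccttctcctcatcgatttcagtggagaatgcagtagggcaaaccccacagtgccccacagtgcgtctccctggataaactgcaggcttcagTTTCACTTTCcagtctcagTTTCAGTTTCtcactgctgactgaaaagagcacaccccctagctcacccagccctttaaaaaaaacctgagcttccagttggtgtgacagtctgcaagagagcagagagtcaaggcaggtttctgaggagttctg
Stat2: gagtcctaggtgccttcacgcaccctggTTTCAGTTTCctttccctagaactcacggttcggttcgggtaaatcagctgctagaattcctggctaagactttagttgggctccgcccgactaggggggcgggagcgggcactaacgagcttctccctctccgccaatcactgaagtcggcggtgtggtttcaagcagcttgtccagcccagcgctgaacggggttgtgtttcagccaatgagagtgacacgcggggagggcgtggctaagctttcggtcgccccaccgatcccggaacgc
Irf1: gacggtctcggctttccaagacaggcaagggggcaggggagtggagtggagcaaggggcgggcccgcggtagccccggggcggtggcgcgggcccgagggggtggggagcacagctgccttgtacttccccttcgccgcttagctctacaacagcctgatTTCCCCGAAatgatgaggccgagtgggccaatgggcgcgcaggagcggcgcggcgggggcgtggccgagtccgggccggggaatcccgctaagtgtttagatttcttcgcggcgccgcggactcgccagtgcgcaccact
With the gene start counted as 0, the matches begin at -104 and -85 in Ifit1, at -222 in Stat2 and at -90 in Irf1. A match is a description of letters, not evidence of binding.

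Most members were lower in HRAS+MYC than in HRAS cultures. Of the 35 members, 26 were lower in HRAS+MYC (74.3% of members, against 13.0% of all genes), 1 was higher (against 11.7% of all genes) and 8 did not pass. The median member difference, HRAS+MYC minus HRAS, was -1.09 on the log2 scale, while the median over all genes was 0.05. When only the arrays of these groups entered the fit, 18 members passed, 17 lower and 1 higher. With all arrays, the members that fell included all 4 sensors, all 4 transcription factors, 5 of 9 effectors that bind or cut RNA, 6 of 9 other antiviral effectors, and 7 of 9 ubiquitin, ISG15 and ADP-ribose enzymes and other regulators. In bulk RNA, fewer expressing cells and less RNA per cell cannot be told apart.

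**Figure D1:**
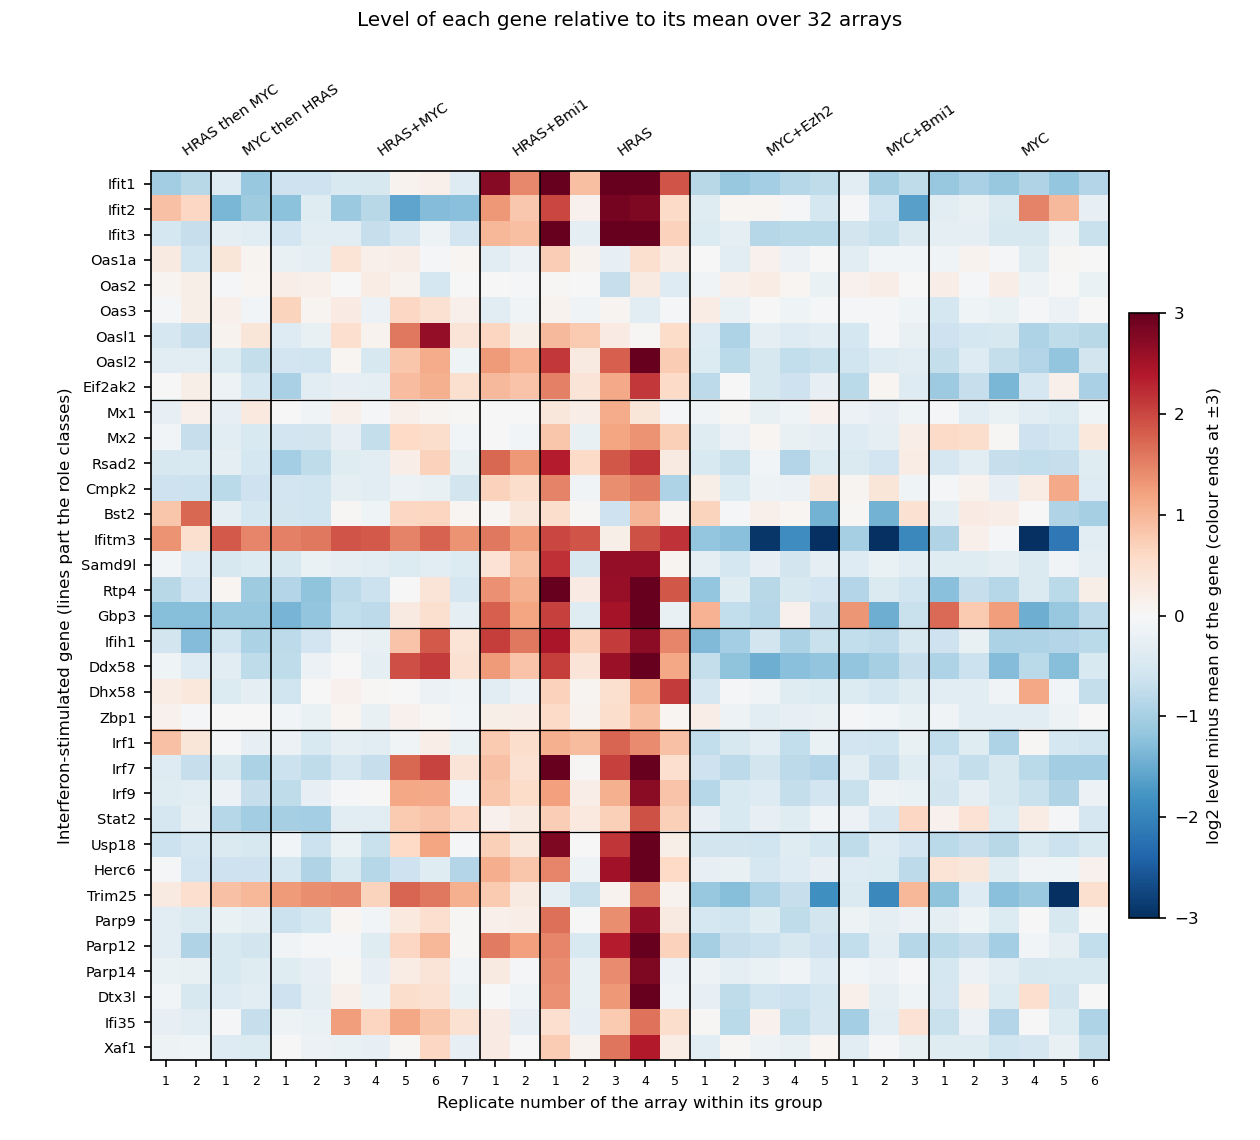
Each row is 1 of 35 interferon-stimulated genes and each column 1 of 32 arrays, grouped by added oncogenes; colour is the log2 level minus the mean of that gene over all arrays, and the colour scale ends at 3 in each direction. Dark red lies mainly in the HRAS arrays, most of all replicate 4, while Ifitm3 is red in the HRAS+MYC arrays as well and Trim25 is highest there.

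The HRAS cultures were far from uniform, and this bears on every comparison with them. The median level over the 35 members was between 5.00 and 5.85 on the 7 HRAS+MYC arrays, and 7.39, 5.50, 7.50, 8.33 and 6.16 on HRAS replicates 1 to 5. HRAS replicate 2 therefore lay within the range of HRAS+MYC, while replicate 4 stood highest. Of the 35 members, 25 had their highest HRAS value on replicate 4 and 24 their lowest on replicate 2. On HRAS replicates 1 to 5, 27, 7, 25, 32 and 10 of the 35 members exceeded every HRAS+MYC array, while the same was true of between 20.03% and 23.91% of all genes. Among the HRAS+MYC arrays, replicates 5 and 6 had the highest medians (5.85 and 5.78), and 20 of the 35 members peaked on replicate 6.

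**Figure D2:**
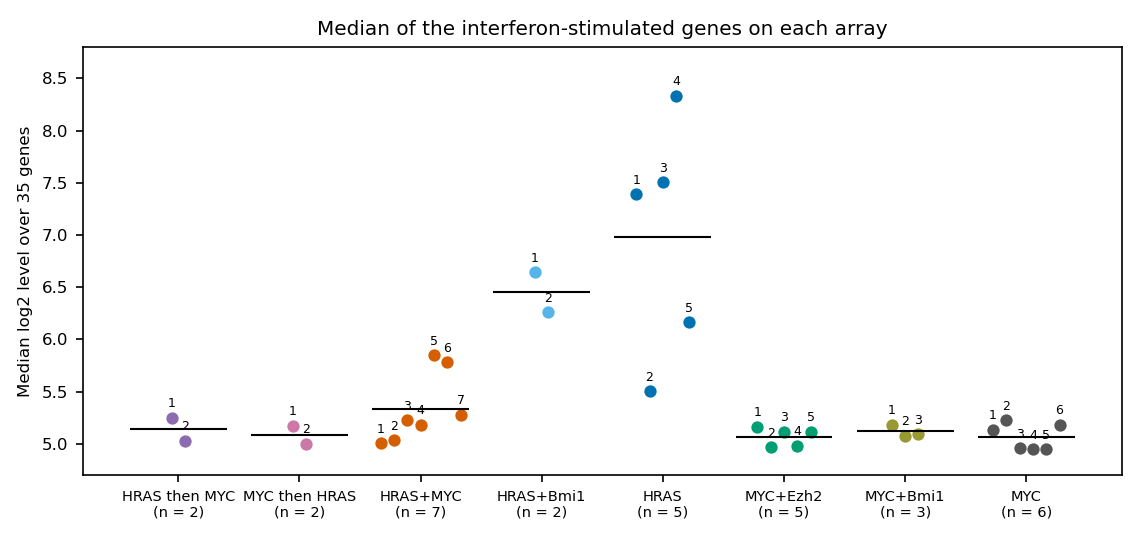
Each point is 1 array, numbered by replicate, placed by its group (horizontal axis) and by the median log2 level over 35 interferon-stimulated genes (vertical axis); lines are group means. HRAS arrays spread between 5.50 and 8.33, HRAS+Bmi1 arrays stand at 6.64 and 6.26, and all groups that hold MYC stay at or below 5.85.

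Among the effectors that bind RNA, Ifit1 (probe set 10462623), which holds back foreign messenger RNA that lacks the cap modification of host RNA, showed the largest change. Its log2 level ran between 4.18 and 4.96 on the HRAS+MYC arrays, with a median of 4.35, and was 8.65, 5.70, 8.20, 9.24 and 6.69 on the HRAS arrays. Every HRAS+MYC array lay below every HRAS array. The fitted difference was -3.22 ± 0.371 (SE), with adjusted p = 3.26e-07 (limma).

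Ifit2 (probe set 10462613), a relative of Ifit1 that also binds RNA, had levels between 4.09 and 5.30 on the HRAS+MYC arrays (median 4.44), against 7.68, 5.80, 8.55, 8.47 and 6.24 on the HRAS arrays. The groups again did not overlap, and the difference was -2.78 ± 0.400 (SE; limma adjusted p = 7.97e-06). Ifit3, another RNA binder of the family, differed by -2.51 ± 0.406 (SE; limma adjusted p = 3.7e-05). Here the groups overlapped, because HRAS replicate 2 stood at 3.75 and HRAS+MYC replicate 6 at 3.89.

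Oasl2, a relative of the oligoadenylate synthetases, fell by 1.59 on the log2 scale and Eif2ak2, the kinase PKR that halts translation when it meets double-stranded RNA, fell by 1.05 (not passing with only the groups compared, limma adjusted p = 0.0619). Oas1a, Oas2 and Oas3, oligoadenylate synthetases whose product activates RNase L, were low in all groups. Their group means ran between 4.98 and 5.49, 4.94 and 5.22, and 4.89 and 5.41, while the lowest array median over all genes was 6.10. Differences between such low values may come out too small, so no departure from the other members can be read from them. Oas1a and Oas2 differed by -0.22 and 0.17 and did not pass. Oasl1, another relative, differed by 0.13, also without passing. Oas3 was the member that rose, by 0.35 ± 0.123 (SE; limma adjusted p = 0.0375). Its levels were 4.93 to 5.79 on the HRAS+MYC arrays (median 5.36), against 5.22, 5.01, 5.20, 4.79 and 5.08 on the HRAS arrays. These ranges overlap, and the call for Oas3 is lost when any 1 of 6 arrays is left out.

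Among the other antiviral effectors the largest differences were those of Rtp4, at -3.07 ± 0.445 (SE; limma adjusted p = 8.81e-06), and Gbp3, a guanylate-binding protein, at -1.93 ± 0.610 (SE; limma adjusted p = 0.0203). Rtp4 ran between 4.05 and 5.65 on the HRAS+MYC arrays (median 4.63), against 8.50, 5.50, 7.89, 10.05 and 7.11 on the HRAS arrays. HRAS replicate 2 was the single HRAS array inside the HRAS+MYC range. The call for Gbp3 is lost without HRAS replicate 1 (difference -1.77), 3 (-1.66) or 4 (-1.51). Samd9l, Rsad2 (viperin, which makes a chain terminator of viral RNA synthesis), Cmpk2 and Mx2 fell by 1.77, 1.70, 1.07 and 0.92. Mx1, a dynamin-like GTPase that traps viral nucleocapsids, differed by -0.35 and did not pass (limma adjusted p = 0.0526). Its group means ran between 3.54 and 4.17, so this difference may also come out too small.

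Blockers of virus entry and release did not pass. Ifitm3, which hinders the fusion of viruses with endosomes, had levels between 12.02 and 12.56 on the HRAS+MYC arrays (median 12.26), against 12.68, 12.57, 10.84, 12.60 and 12.84 on the HRAS arrays. The HRAS+MYC arrays lay inside the HRAS range, and the difference was 0.00 ± 0.675 (SE; limma adjusted p = 0.998). Both rest on HRAS replicate 3, since the other HRAS arrays lay above every HRAS+MYC array, though by little. Without replicate 3 the difference was -0.36 and did not pass (limma adjusted p = 0.803). Bst2 (tetherin), which holds budding virus particles on the cell surface, differed by -0.19 ± 0.345 (SE; limma adjusted p = 0.742).

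All 4 sensors were lower in HRAS+MYC cultures. Ifih1 (MDA5) and Ddx58 (RIG-I), the helicases that recognise viral double-stranded RNA in the cytoplasm, differed by -1.68 ± 0.339 (SE; limma adjusted p = 0.000488) and -1.59 ± 0.464 (SE; limma adjusted p = 0.012). Ddx58 had levels of 5.84 to 8.72 on the HRAS+MYC arrays (median 6.61), against 8.68, 7.00, 9.20, 10.71 and 7.77 on the HRAS arrays. HRAS+MYC replicates 5 and 6, at 8.55 and 8.72, lay among the HRAS arrays, and without HRAS replicate 4 the call for Ddx58 is lost (difference -1.08). Dhx58 (LGP2), which modulates those helicases, fell by 1.00, and Zbp1, a sensor of Z-form nucleic acids, fell by 0.48.

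The transcription factors split by how evenly they fell. Irf1 (probe set 10376060) ran between 5.84 and 6.52 on the HRAS+MYC arrays (median 6.11), against 7.38, 7.26, 8.06, 7.72 and 7.19 on the HRAS arrays. Every HRAS+MYC array lay below every HRAS array, replicate 2 included, and the difference was -1.40 ± 0.160 (SE; limma adjusted p = 2.77e-07). The SE of Irf1, which draws on the spread within all 8 groups, was the smallest of the 4 factors. Irf1 kept its call in every fit that left out 1 array.

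Irf7, the factor that amplifies interferon alpha production, had levels of 4.90 to 7.69 on the HRAS+MYC arrays (median 5.16), against 8.63, 5.70, 7.70, 9.28 and 6.16 on the HRAS arrays. HRAS+MYC replicates 5, 6 and 7 stood at 7.37, 7.69 and 6.04 and overlapped the HRAS arrays, while the other 4 lay between 4.90 and 5.16. The difference was -1.62 ± 0.490 (SE; limma adjusted p = 0.0156), and the call is lost without HRAS replicate 1 (-1.33) or 4 (-1.17).

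Irf9, the DNA-binding subunit of the type I response, had levels of 5.85 to 7.78 on the HRAS+MYC arrays (median 6.59), against 7.84, 6.82, 7.69, 9.32 and 7.48 on the HRAS arrays. Its partner Stat2 had levels of 6.39 to 8.28 on the HRAS+MYC arrays (median 7.08), against 8.15, 7.72, 8.14, 9.32 and 8.12 on the HRAS arrays. In both genes HRAS replicate 4 was far above the other HRAS arrays, and HRAS+MYC replicates 5 and 6 (for Stat2 also 7) overlapped the rest. The differences were -1.04 ± 0.308 for Irf9 (SE; limma adjusted p = 0.0132) and -0.93 ± 0.299 for Stat2 (SE; limma adjusted p = 0.0219). Without HRAS replicate 4 both calls are lost, with differences of -0.67 for Irf9 and -0.68 for Stat2. The call for Stat2 is also lost without HRAS+MYC replicate 1 (-0.78) or 2 (-0.77).

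**Figure D3:**
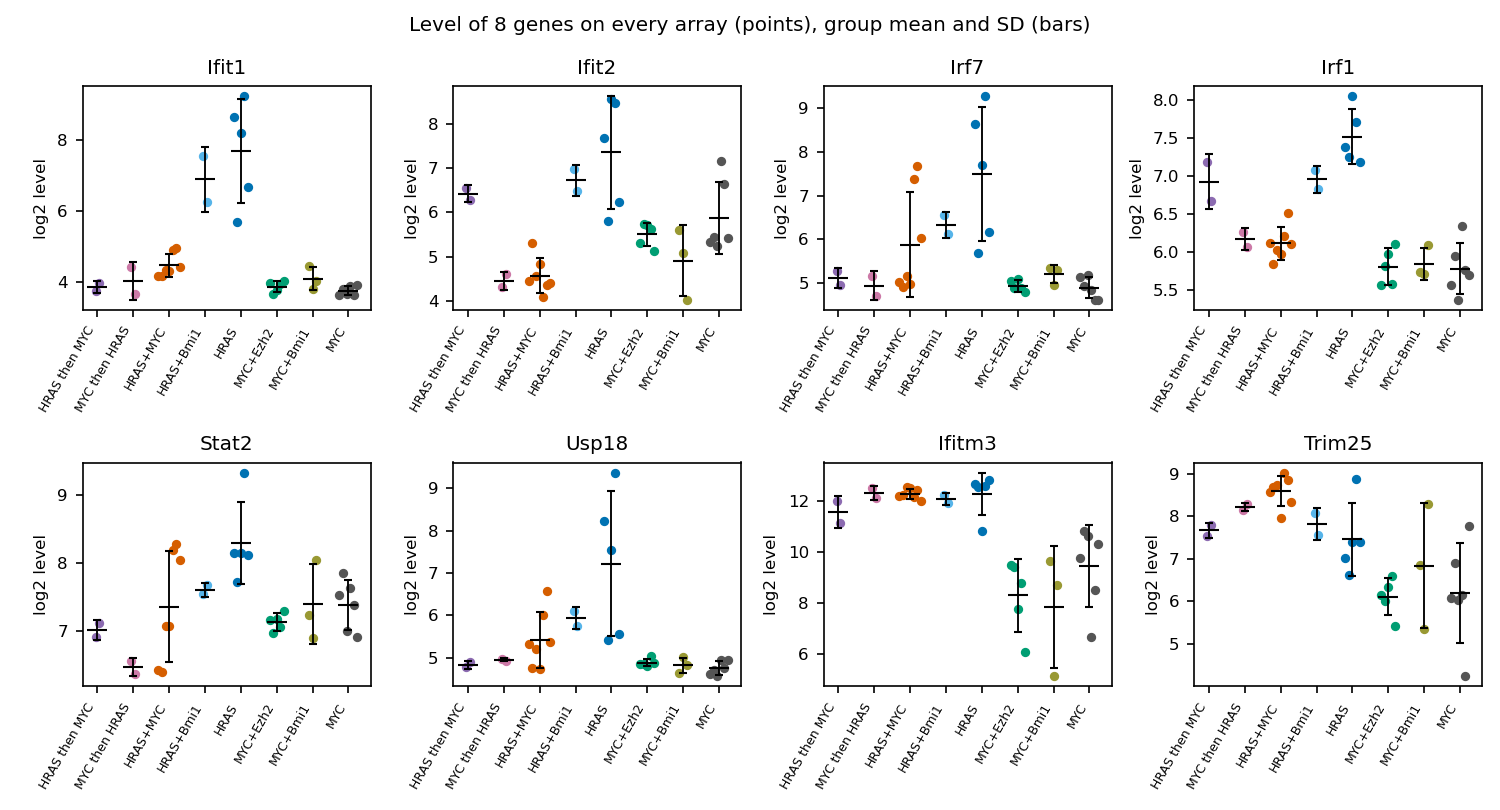
Log2 level of 8 interferon-stimulated genes on every array (points) by group, with the group mean and SD as bars; each panel has its own vertical axis. Ifit1, Ifit2 and Irf1 separate all HRAS+MYC arrays from all HRAS arrays, Irf7 and Stat2 do not, and Ifitm3 and Trim25 are high in the HRAS+MYC group.

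Among the ubiquitin, ISG15 and ADP-ribose enzymes and regulators, Herc6 (probe set 10538590), the enzyme that attaches ISG15 to proteins in mice, ran between 3.70 and 4.25 on the HRAS+MYC arrays (median 3.98), against 6.08, 4.46, 7.13, 7.65 and 5.21 on the HRAS arrays. The groups did not overlap, and the difference was -2.16 ± 0.322 (SE; limma adjusted p = 1.27e-05). Ifit1, Ifit2, Irf1 and Herc6 were the 4 members whose HRAS+MYC arrays all lay below the HRAS arrays. Over all genes, 7.12% were arranged in that way.

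Usp18, the protease that removes ISG15 and also restrains the type I receptor, had levels of 4.75 to 6.59 on the HRAS+MYC arrays (median 5.32), against 8.22, 5.42, 7.54, 9.37 and 5.57 on the HRAS arrays. HRAS replicates 2 and 5 lay inside the HRAS+MYC range and the other 3 far above it. The difference was -1.80 ± 0.433 (SE; limma adjusted p = 0.00267). The ADP-ribosyltransferases Parp9, Parp12 and Parp14 fell by 1.25, 1.31 and 1.09. Dtx3l, the ubiquitin ligase that pairs with Parp9, fell by 1.09, and Xaf1 fell by 1.05. When only the groups compared entered the fit, Parp12, Parp14 and Dtx3l did not pass (limma adjusted p = 0.0816, 0.0855 and 0.108). Ifi35 differed by -0.07 and did not pass.

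Trim25, the ubiquitin ligase that activates RIG-I, was the exception of this class. Its levels ran between 7.96 and 9.02 on the HRAS+MYC arrays (median 8.69), against 7.01, 6.62, 7.39, 8.88 and 7.40 on the HRAS arrays. HRAS replicate 4 lay among the HRAS+MYC arrays and the other HRAS arrays below all of them. The difference of 1.14 ± 0.449 (SE) did not pass (limma adjusted p = 0.0656), and without HRAS replicate 4 it was 1.49 and passed (limma adjusted p = 0.018). It also passed with only the groups compared (limma adjusted p = 0.0187).

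Leaving out HRAS replicate 4 lowered the number of members that passed to 18, against 27 with all arrays, and moved the median member difference to -0.85. Of the 18, 17 were lower and 1, Trim25, was higher, against 26 lower and 1 higher with all arrays. The calls lost were those of Eif2ak2, Cmpk2, Gbp3, Ddx58, Irf7, Irf9, Stat2, Parp12, Dtx3l and Oas3, all of which kept their sign. With only the groups compared, the calls lost were those of Eif2ak2, Cmpk2, Ddx58, Irf7, Irf9, Stat2, Parp12, Parp14, Dtx3l and Oas3, with limma adjusted p between 0.0567 and 0.112. Leaving out HRAS replicate 2 instead moved the median to -1.41.

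**Figure D4:**
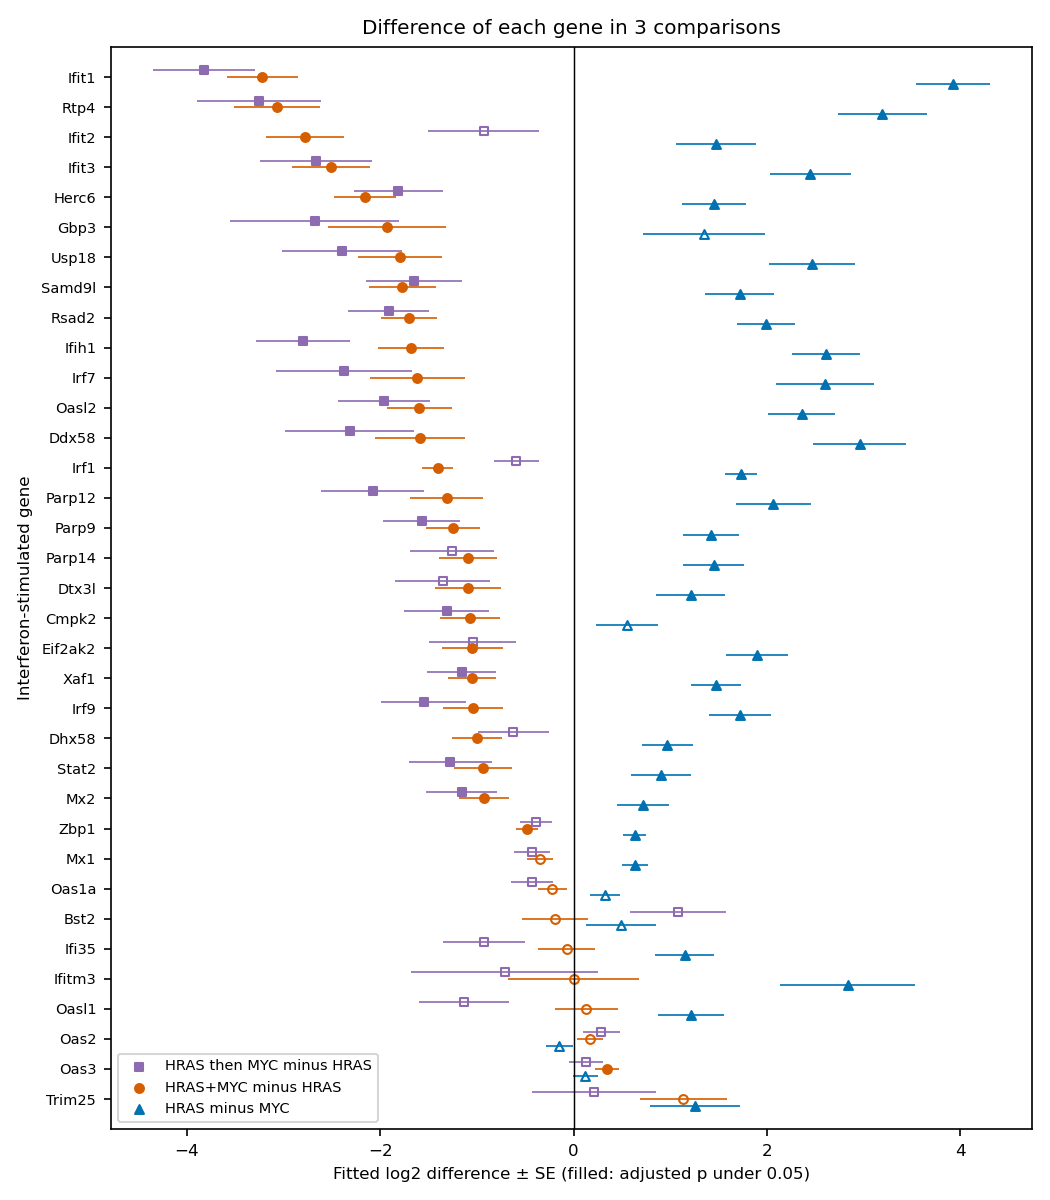
Fitted log2 differences with SE bars for 35 interferon-stimulated genes (rows) in 3 comparisons: HRAS then MYC minus HRAS (squares), HRAS+MYC minus HRAS (circles) and HRAS minus MYC (triangles), filled where the adjusted p was under 0.05. Circles lie left of 0 for 30 genes and triangles right of 0 for 34 genes, and the 3 comparisons share the HRAS arrays.

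When MYC was added later to cells that already carried HRAS, the members were again low. In HRAS then MYC cultures 19 of 35 members were lower than in HRAS (54.3%, against 6.21% of all genes), and 0 were higher by the limma test (against 6.30% of all genes; 1 at an unadjusted p under 0.05). The median member difference was -1.27, with 0.04 over all genes. In 17 members both arrays lay below all 5 HRAS arrays, an arrangement shown by 12.4% of all genes. The count was 3 when only the arrays of these groups entered the fit, and 8 and 3 without HRAS then MYC replicate 1 and 2. This comparison uses the same HRAS arrays as the preceding one.

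Ifit1 stood at 3.76 and 3.98 on the HRAS then MYC arrays, below all HRAS values given above, and differed from HRAS by -3.82 ± 0.530 (SE; limma adjusted p = 2.11e-05). Rtp4 stood at 4.44 and 4.68 and differed by -3.25 ± 0.636 (SE; limma adjusted p = 0.000986). Ifih1 stood at 5.25 and 4.49, against 8.23, 6.48, 7.89, 8.48 and 7.25 on the HRAS arrays, and differed by -2.79 ± 0.485 (SE; limma adjusted p = 0.000318). In all 3 genes both HRAS then MYC arrays lay below every HRAS array. Rtp4 did not pass when only the groups compared entered the fit (adjusted p = 0.107).

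Usp18, Irf7, Irf9 and Stat2 were also lower than in HRAS, by -2.39, -2.38, -1.55 and -1.27. The 2 arrays gave 4.77 and 4.89 for Usp18, 5.28 and 4.96 for Irf7, 6.26 and 6.30 for Irf9, and 6.92 and 7.12 for Stat2. Each of these values lay below all 5 HRAS arrays. All 4 calls are lost with only the groups compared (limma adjusted p between 0.0956 and 0.223) and without either HRAS then MYC array. Irf1, at 7.18 and 6.67, differed by -0.59 ± 0.228 and Ifit2, at 6.56 and 6.29, by -0.93 ± 0.572 (SE), and neither passed (limma adjusted p = 0.0941 and 0.349).

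Set against HRAS+MYC, the HRAS then MYC cultures differed in 2 of 35 members, both higher (5.7%, against 6.89% of all genes), and 0 members were lower by the limma test (against 5.17% of all genes; 3 at an unadjusted p under 0.05). Those 2 were Ifit2, with a difference of 1.85 ± 0.548 (SE; limma adjusted p = 0.0249), and Irf1, with 0.81 ± 0.219 (SE; limma adjusted p = 0.0133). Both HRAS then MYC arrays lay above every HRAS+MYC array in both genes, an arrangement shown by 15.3% of all genes. With only 2 arrays these calls were weakly held: the call for Ifit2 is lost without either HRAS then MYC array (differences 1.71 and 1.98), and that for Irf1 is lost without replicate 1 (0.56).

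Most members were also higher in HRAS than in MYC cultures. In HRAS cultures 29 of 35 members were higher than in MYC (82.9%, against 15.4% of all genes; 33.4% of all genes passed in either direction), and 0 were lower by the limma test (0 also at an unadjusted p under 0.05). The median member difference was 1.45, with -0.03 over all genes. In 17 members all HRAS arrays lay above all MYC arrays, an arrangement shown by 8.88% of all genes. When only the arrays of these groups entered the fit, 24 members passed, all of them higher in HRAS. The HRAS arrays are again the same.

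Ifit1 ran between 3.64 and 3.93 on the MYC arrays (median 3.75), so that even HRAS replicate 2, at 5.70, lay above them. Rtp4 ran between 4.01 and 5.44 (median 4.51) and Ddx58 between 5.30 and 6.16 (median 5.75), in both cases below all HRAS arrays. The differences, HRAS minus MYC, were 3.92 ± 0.383 for Ifit1, 3.19 ± 0.461 for Rtp4 and 2.96 ± 0.480 for Ddx58 (SE; limma adjusted p = 5.39e-09, 3.31e-06 and 1.78e-05). Usp18, Irf7, Irf1, Irf9 and Stat2 were higher by 2.46, 2.60, 1.73, 1.72 and 0.90. The call for Stat2 is lost without HRAS replicate 4 (0.65), MYC replicate 3 (0.83) or MYC replicate 6 (0.81). The 6 members that did not pass were Oas1a, Oas2, Oas3, Bst2, Cmpk2 and Gbp3, with differences between -0.15 and 1.35. Gbp3 varied among the MYC arrays themselves, between 4.50 and 7.67.

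Between HRAS+MYC and MYC cultures 9 of 35 members passed. Of these, 8 were higher in HRAS+MYC (22.9% of members, against 15.8% of all genes) and 1 was lower (against 18.4% of all genes), and the median member difference was 0.30, with 0.03 over all genes. The higher members were Ifitm3, Trim25, Ddx58, Oasl1, Ifi35, Ifih1, Eif2ak2 and Oas3. Of these, Ddx58, Ifih1 and Eif2ak2 were lower than in HRAS, as given above, and the calls for Ifih1 and Eif2ak2 are lost with only the groups compared (limma adjusted p = 0.0613 and 0.0699) and without HRAS+MYC replicate 5 (0.82 and 0.71) or 6 (0.66 and 0.69). Eif2ak2 likewise did not pass in the fits that left out HRAS+MYC replicate 7 (0.79) and, among the MYC arrays, replicates 1 (0.78), 3 (0.73) and 6 (0.80).

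Ifitm3 showed no overlap between these groups: the HRAS+MYC arrays lay between 12.02 and 12.56, and the MYC arrays between 6.69 and 10.84 (median 10.05). The difference was 2.84 ± 0.642 (SE; limma adjusted p = 0.00089). Over all genes, 7.35% had every HRAS+MYC array above every MYC array. Trim25 lay between 7.96 and 9.02 on the HRAS+MYC arrays and between 4.25 and 7.77 on the MYC arrays (median 6.12), again without overlap. It differed by 2.40 ± 0.426 (SE; limma adjusted p = 5.6e-05). Ddx58 differed by 1.37 ± 0.441 (SE; limma adjusted p = 0.0166), with HRAS+MYC replicates 1, 2, 3, 4 and 7 at 5.84 to 7.07 and replicates 5 and 6 at 8.55 and 8.72. The last pair lay far above the MYC range of 5.30 to 6.16.

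Ifit2 was the member that was lower in HRAS+MYC than in MYC, by -1.30 ± 0.380 (SE; limma adjusted p = 0.00819). The MYC arrays ran between 5.23 and 7.16 (median 5.44), and only HRAS+MYC replicate 2, at 5.30, reached into that range. The calls for Ifit2 and Ddx58 are both lost when MYC replicates 4 and 5 and HRAS replicate 3, whose profiles stood apart from their groups, are left out together (differences -0.79 and 1.30).

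The number of members that exceeded every MYC array was 9, 8, 18, 10, 25, 24 and 19 on HRAS+MYC replicates 1 to 7. Replicates 5 and 6 were therefore also the ones nearest to HRAS in this count, since HRAS replicates 1 to 5 gave 32, 18, 30, 34 and 26. Over all genes the share above every MYC array lay between 20.27% and 26.32% on the HRAS+MYC arrays and between 18.75% and 24.31% on the HRAS arrays.

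When HRAS was added later to MYC cells, 2 of 35 members were higher than in MYC (5.7%, against 9.83% of all genes) and 0 were lower by the limma test (against 10.6% of all genes; 2 at an unadjusted p under 0.05). They were the same blocker of entry and ubiquitin ligase that were high with both oncogenes given together. Ifitm3 stood at 12.52 and 12.15 on the MYC then HRAS arrays and differed from MYC by 2.86 ± 0.942 (SE; limma adjusted p = 0.0301). Trim25 stood at 8.16 and 8.29 and differed by 2.02 ± 0.626 (SE; limma adjusted p = 0.0213). In both genes the MYC then HRAS arrays lay above all MYC arrays, an arrangement shown by 14.9% of all genes. Both calls are lost when either MYC then HRAS array is left out. The differences were then 2.68 and 3.05 for Ifitm3 and 2.09 and 1.96 for Trim25.

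Ifit1 stood at 4.42 and 3.67 in MYC then HRAS cultures and differed from MYC by 0.28 (limma adjusted p = 0.768). Irf7, at 5.17 and 4.71, differed by 0.05, Usp18, at 4.98 and 4.93, by 0.19, and Irf9, at 6.43 and 5.93, by 0.07. Irf1, at 6.27 and 6.07, differed by 0.39 and Stat2, at 6.56 and 6.38, by -0.92. None of these 6 passed, and the median difference over the members was 0.09, with 0.03 over all genes.

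Between MYC then HRAS and HRAS+MYC, 0 of 35 members passed by the limma test (against 0.110% of all genes), and 3 were lower at an unadjusted p under 0.05. The members that differed most were Ddx58, by -1.02 ± 0.636, and Ifih1, by -0.97 ± 0.465 (SE; limma adjusted p = 0.804 and 0.672). The MYC then HRAS arrays gave 6.28 and 5.84 for Ddx58 and 5.19 and 4.85 for Ifih1, inside or just below the HRAS+MYC ranges of 5.84 to 8.72 and 5.00 to 7.62.

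The Polycomb subunits were not accompanied by a change that passed in any member. HRAS+Bmi1 cultures had member medians of 6.64 and 6.26, inside the HRAS range. Between HRAS+Bmi1 and HRAS, 0 of 35 members passed by the limma test (against 5.91% of all genes), and 11 were lower at an unadjusted p under 0.05. The median member difference was -0.54, with -0.01 over all genes. Rtp4, at 6.64 and 6.32 in HRAS+Bmi1, and Usp18, at 6.12 and 5.76, differed from HRAS by -1.33 ± 0.636 and -1.29 ± 0.618 (SE; limma adjusted p = 0.264 and 0.265). Both pairs lay inside the HRAS ranges. Without HRAS replicate 2, Rtp4 differed by -1.91 and passed (limma adjusted p = 0.0257).

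The remaining readouts stood between the extremes of the HRAS arrays or near their low end. Ifit1 was 7.54 and 6.26 in HRAS+Bmi1, Irf7 was 6.55 and 6.12, and Irf9 was 7.45 and 7.16. Irf1 was 7.09 and 6.84 and Stat2 was 7.54 and 7.68, all 4 values below every HRAS array. Over all genes, 11.7% had both HRAS+Bmi1 arrays below every HRAS array. Stat2 and Irf1 did not pass.

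In the MYC background no member passed with either Polycomb subunit. Between MYC+Ezh2 and MYC, and between MYC+Bmi1 and MYC, 0 of 35 members passed by the limma test (against 0.246% and 0.150% of all genes), and 0 had an unadjusted p under 0.05 in either comparison. Ifitm3 differed most in both, by -1.15 ± 0.698 with Ezh2 and -1.62 ± 0.816 with Bmi1 (SE; limma adjusted p = 0.58 and 0.445). It varied widely within these groups, with 9.52, 9.43, 7.77, 8.81 and 6.08 on the MYC+Ezh2 arrays and 9.67, 5.14 and 8.73 on the MYC+Bmi1 arrays, against 6.69 to 10.84 on the MYC arrays (median 10.05).

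Next came Dtx3l with Ezh2, by -0.42 ± 0.356, and Ifit2 with Bmi1, by -0.97 ± 0.483 (SE; limma adjusted p = 0.725 and 0.44). Dtx3l was 5.07, 4.58, 4.72, 4.69 and 4.81 on the MYC+Ezh2 arrays, against 4.78 to 5.83 on the MYC arrays (median 5.12). Ifit2 was 5.61, 5.08 and 4.03 on the MYC+Bmi1 arrays, against 5.23 to 7.16 on the MYC arrays. The ranges overlapped in both genes.

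The difference between the effect of Bmi1 in HRAS cells and its effect in MYC cells passed in 0 of 35 members by the limma test (against 2.43% of all genes), with 3 at an unadjusted p under 0.05. It was -1.47 ± 0.917 for Irf7 and 1.41 ± 1.26 for Ifitm3 (SE; limma adjusted p = 0.447 and 0.626). Across the groups, then, the order of mean Ifit1 levels was HRAS 7.70 ± 1.46 (SD, n = 5), HRAS+Bmi1 6.90 ± 0.91 (SD, n = 2), HRAS+MYC 4.48 ± 0.324 (SD, n = 7), MYC+Bmi1 4.10 ± 0.329 (SD, n = 3), MYC then HRAS 4.05 ± 0.532 (SD, n = 2), MYC+Ezh2 3.89 ± 0.159 (SD, n = 5), HRAS then MYC 3.87 ± 0.156 (SD, n = 2) and MYC 3.77 ± 0.133 (SD, n = 6). Within the first pair, and among the last 5 groups, neighbours in this order differed by less than the larger of their SDs.

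Members varied together over the arrays to different degrees. Over all 32 arrays, which share the group structure above, the levels of Rtp4, Oasl2, Rsad2 and Ifit3 followed that of Ifit1 most closely, with Pearson r of 0.951, 0.943, 0.938 and 0.932. Among all 19937 other genes these were 4 of the 5 closest, and the remaining one was Lpin3, a phosphatidate phosphatase, with 0.949. Of the 34 other members, 18 had r above 0.8 (138 of 19937 genes did), and 7 had r under 0.5: Oasl1, Ifitm3, Oas1a, Trim25, Bst2, Oas3 and Oas2.

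The core of the response element was present in the promoter windows of members that fell and of members that did not. It was found in 8 of the 19 members with a window that were lower in HRAS+MYC than in HRAS (42.11%) and in 4 of the 7 that were not (57.14%). Ifit1, Ifit3 and Gbp3, with 2 matches each, fell. Oas1a, Bst2 and Ifitm3, also with 2 matches each, and Oas3 hold the core and did not fall. Of these, Oas3 and Oas1a were low in all groups, as given above. Irf1, Ifi35 and Ifit2 hold TTCNNNGAA without it.

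Other genes of the pathway were listed by role, and the following counts are for HRAS+MYC against HRAS. Over all genes, 11.7% were higher and 13.0% lower in this comparison. Of 15 interferon genes, 1 was higher and 0 were lower. The one was Ifne, at 0.51 ± 0.146 (SE; limma adjusted p = 0.0105). Ifnb1, the interferon that many cells make first, stayed between 3.76 and 4.45 on all 32 arrays. Its levels were 3.85 to 4.36 on the HRAS+MYC arrays (median 4.22), against 4.45, 4.09, 3.78, 4.32 and 4.18 on the HRAS arrays, and the groups overlapped. Differences between such low values may come out too small, so a lack of change cannot be read from them.

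Of 10 genes for receptors and JAK-STAT proteins, 3 were lower and 0 were higher, and 9 of the 10 differences were negative. Ifngr1, the ligand-binding chain of the interferon gamma receptor, differed by -0.92 ± 0.140, Jak1 by -0.74 ± 0.136 and Ifnar1 by -0.41 ± 0.137 (SE; limma adjusted p = 1.65e-05, 0.000165 and 0.0272). In all 3 every HRAS+MYC array lay below every HRAS array. Ifngr1 ran between 7.66 and 8.26 on the HRAS+MYC arrays (median 7.86), against 8.85, 8.50, 9.20, 9.13 and 8.60 on the HRAS arrays. Its highest HRAS value was on replicate 3, not on replicate 4.

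Of 16 other sensors and adaptors, 3 were higher and 2 lower, counts not far from the shares of all genes. Tlr3, the endosomal receptor for double-stranded RNA, was higher by 2.72 ± 0.397 (SE; limma adjusted p = 9.39e-06). It ran between 6.33 and 9.40 on the HRAS+MYC arrays (median 9.06), against 6.78, 5.03, 7.32, 5.50 and 5.11 on the HRAS arrays, and HRAS+MYC replicate 1 was the only one inside the HRAS range. Myd88 and Irf3, an adaptor and a factor that start interferon production, were higher by 0.83 and 0.69. Cgas, the sensor of cytoplasmic DNA, differed by -0.89 ± 0.163 (SE; limma adjusted p = 0.000174). Sting1, the adaptor that receives its signal, ran between 9.76 and 12.13 on the HRAS+MYC arrays (median 11.72), against 10.67, 9.77, 11.54, 9.90 and 10.08 on the HRAS arrays, and did not pass.

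Of 46 other interferon-induced genes, 21 were lower and 2 higher. Cxcl10, a chemokine that draws T cells, differed by -2.47 ± 0.493, Irgm1, an immunity-related GTPase, by -2.20 ± 0.472 and Gbp7 by -2.06 ± 0.494 (SE; limma adjusted p = 0.000434, 0.000914 and 0.00257). Ifitm1, a relative of Ifitm3, was higher by 2.83 ± 0.471 (SE; limma adjusted p = 5.14e-05). It ran between 8.70 and 10.72 on the HRAS+MYC arrays (median 10.31), against 8.65, 9.14, 5.52, 5.98 and 6.47 on the HRAS arrays, so that HRAS replicates 1 and 2 reached that range or lay just below it. Of 9 negative regulators, 2 were higher and 0 lower: the phosphatases Ptpn6, which acts on receptors and JAK kinases, at 1.74 ± 0.209, and Ptpn2, which removes phosphate from JAK and STAT proteins, at 0.71 ± 0.199 (SE; limma adjusted p = 6.1e-07 and 0.00905).

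**Figure D5:**
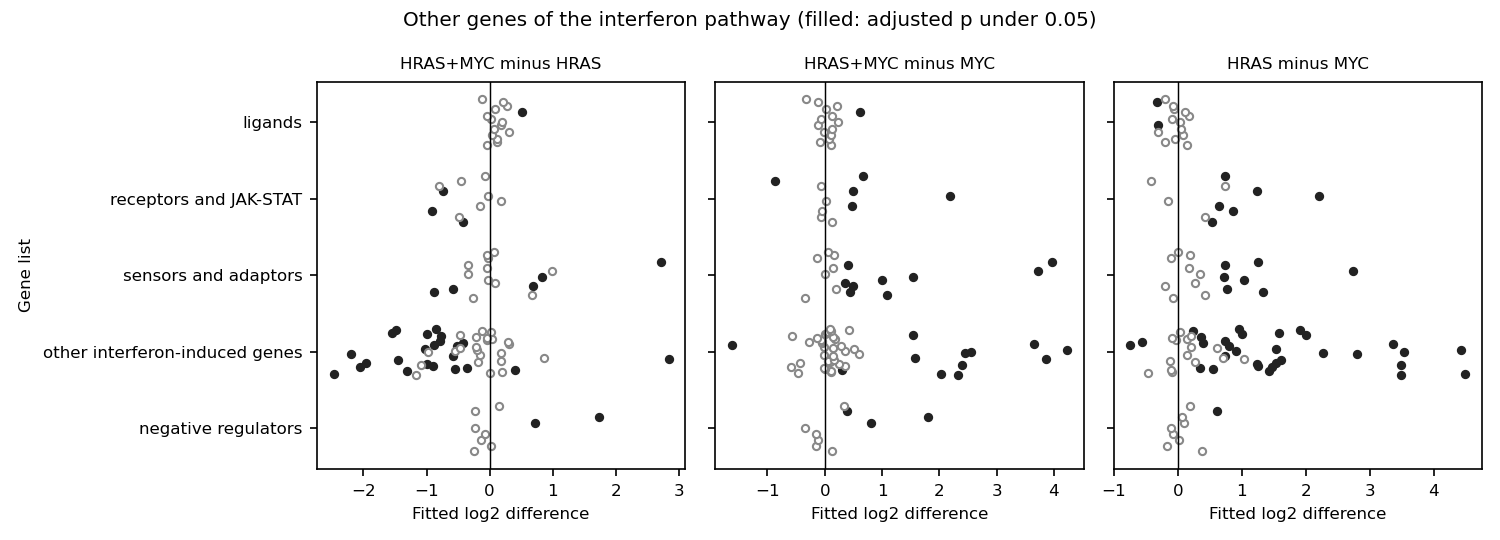
Fitted log2 difference (horizontal axis) of each gene (point) in 5 lists of other interferon pathway genes (rows) for HRAS+MYC minus HRAS, HRAS+MYC minus MYC and HRAS minus MYC, filled where the adjusted p was under 0.05. Ligands lie near 0 in every panel, sensors and adaptors lie mostly right of 0 against MYC, and the other induced genes lie mostly left of 0 in the first panel and right of 0 in the last.

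Of all genes, 15.4% were higher in HRAS than in MYC, and 33.4% passed in either direction. In HRAS against MYC, the counts higher and lower were 0 and 2 of 15 interferon genes, 6 and 0 of 10 receptor and JAK-STAT genes, 7 and 0 of 16 sensors and adaptors, 29 and 2 of 46 other induced genes, and 1 and 0 of 9 negative regulators. The largest differences were those of Cxcl10 (4.49), Mlkl (4.43), Lgals3bp (3.53) and Ccl5 (3.49), and those of Il10rb (2.21), Sting1 (2.73) and Cgas (1.34) upstream. In HRAS+MYC against MYC, where 15.8% of all genes were higher and 18.4% lower, these counts were 1 and 0, 4 and 1, 9 and 0, 11 and 1, and 3 and 0. Tlr3 and Sting1 were higher there by 3.97 ± 0.377 and 3.72 ± 0.516, and Mlkl, the executor of necroptosis, by 4.23 ± 0.214 (SE; limma adjusted p = 2.47e-09, 1.57e-06 and 8.79e-15).

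Markers of the labelled neural cells were not uniform over the arrays, though some stayed high. Nes and Vim, markers of neural stem cells, lay between 8.27 and 11.75 and between 9.16 and 13.86 on all arrays, and Sox2 lay above 9.6 except on MYC replicates 4 and 5. Of 8 neural stem and radial glia markers, 4 were lower in HRAS+MYC than in HRAS and 0 higher (against 13.0% and 11.7% of all genes). Against MYC, 3 of the 8 were lower in HRAS+MYC and 1 higher, with differences from -5.05 to 1.73 (18.4% and 15.8% of all genes passed). In HRAS, 2 were lower and 4 higher than in MYC, from -3.90 to 2.22 (15.4% of all genes were higher, 33.4% passed in either direction). Between HRAS+Bmi1 and HRAS the differences ran from -1.80 to 4.85. The identity of the cells was not tested. Markers of blood-derived cells that could carry an interferon response were mixed. Some were low on all arrays: Ptprc lay between 4.23 and 5.61 on all arrays, Aif1 between 4.13 and 4.68, Cd3e between 4.90 and 5.86, and Siglech, which marks plasmacytoid dendritic cells, between 4.23 and 4.90. Others were not: Cd68 and Flt3 were high on the HRAS+MYC and HRAS arrays, and Laptm5 on HRAS replicates 1 and 2. The mean over 16 microglia and macrophage markers was 4.92 to 5.17 on the HRAS+MYC arrays (median 4.99), and 5.36, 5.29, 4.60, 4.92 and 5.16 on the HRAS arrays. HRAS replicates 1 and 2, where Laptm5 was high, lay above the HRAS+MYC values of this mean. Replicate 3 lay below them, and replicates 4 and 5 lay inside or just below them. Of these markers 1 was lower in HRAS+MYC than in HRAS and 0 higher: Laptm5, at 10.50 and 10.04 on HRAS replicates 1 and 2 and at or below 6.50 on the other HRAS arrays. For T and NK cells the counts were 0 and 0 of 8 (limma), for endothelial cells and pericytes 1 lower of 8, and for plasmacytoid dendritic cells 1 lower of 3. Over all genes, 13.0% were lower in this comparison and 11.7% higher, and 1 of 8 is near the former share. Cd68, a lysosomal protein of macrophages, was between 8.62 and 10.96 on the HRAS+MYC arrays (median 9.42), against 8.58, 9.68, 6.86, 9.22 and 11.21 on the HRAS arrays. In HRAS against MYC, 2 of the 16 microglia and macrophage markers were higher (Cd68 by 3.13 and Laptm5 by 2.33) and 1 was lower, and Flt3, listed for plasmacytoid dendritic cells, was higher by 3.13. The share of all genes that were higher in HRAS than in MYC was 15.4%, and 2 of 16 is near it. Flt3 ran between 6.90 and 8.61 on the HRAS+MYC arrays (median 8.20), was 9.49, 9.89, 7.72, 7.45 and 8.20 on the HRAS arrays, and ran between 5.21 and 5.71 on the MYC arrays (median 5.41). On the HRAS then MYC arrays, Cd68 was 6.70 and 6.11 and Flt3 was 6.24 and 6.76, both lower than in HRAS (by -2.70 and -2.05; limma adjusted p = 0.00907 and 0.00464). The part of these markers in the differences of the members was not tested.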

How the data were processed

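The deposited values are log2 expression levels, 1 per probe set and array. Per the submitters' processing notes, the authors used RMA, the robust multi-array average, as implemented in Affymetrix Expression Console 1.0. The log2 scale was inferred from the values, which run between 1.44 and 14.5 with array medians of 5.59 to 5.79. RMA brings the arrays to a common distribution before probe sets are summarised, so a general shift of RNA in a group would largely not be seen. It also draws weak probe sets towards a floor, so that differences between low values come out too small. Neither detection values nor scan batches were used here, and the depth of an array limits the precision only through the spread between arrays.

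Of 35557 probe sets, 21789 had 1 symbol in the platform annotation and were used, and a gene with several took the probe set with the highest mean, which left 19938 genes. Among the members this choice arose only for Irf1. A model with a mean for each of 8 groups was fitted to all 32 arrays with limma 3.58.1 in R 4.3.3, with eBayes and 2-sided tests, and p-values were adjusted by Benjamini-Hochberg over the 19938 genes of a comparison. The HRAS+Bmi1, HRAS then MYC and MYC then HRAS groups hold 2 arrays each and borrow the spread of the others. The steps were tested on simulated data. Promoter windows are from RefSeq.

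The members were given, and the role classes, pathway lists, markers, alternatives and naming rule were chosen with earlier results of these data known. The rule named members that passed in HRAS+MYC against HRAS with arrays that do not overlap, Ifit1, Irf7, Irf9, Stat2, Usp18 and Irf1 throughout, and in every other comparison the 3 members with the largest passing difference in each direction or, where none passed, the 2 with the largest difference. Pathway lists gave their counts and up to 4 genes. Ifit3, Rtp4, Gbp3, Oas3, Trim25, Ifitm3 and Ddx58 in HRAS+MYC against HRAS, and Ifnb1, Sting1, Lpin3, Cd68, Laptm5, Flt3 and the array values of Ifngr1, were described after their values were seen. Alternatives were the mean of probe sets, a filter on genes with a mean of at least 6, a second quantile normalization, eBayes with trend and robust settings, only the groups compared, a replicate block, leaving out each array, and leaving out HRAS replicate 3 with MYC replicates 4 and 5.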

Additional observations from a re-analysis of the deposited data

Results flagged for a closer look

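In 7 of 140 sets of arrays (35 members in each of the 4 groups of 4 to 10 arrays) a single array stood far from the others of its group by Dixon's criterion. This is 5.0%, and chance alone gives about 1 in 20. Stat2 stood highest on HRAS replicate 4, at 9.3223, and Ifitm3 lowest on HRAS replicate 3, at 10.8445. In HRAS+MYC, Oas2 was lowest on replicate 6, at 4.5538, Xaf1 was highest on replicate 6, at 5.4875, and Dhx58 was lowest on replicate 1, at 4.4776. Dhx58 was highest on MYC replicate 4, at 6.242, and Oasl1 was lowest on MYC+Ezh2 replicate 2, at 5.9407. What set these arrays apart was not tested.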

How the results depend on the processing

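The count of members that passed in HRAS+MYC against HRAS, 27 with all arrays, was 7 among the 11 members kept by a mean of at least 6, 18 when only those groups entered the fit, and 18 to 27 when 1 array was left out; the median difference then lay between -1.411 and -0.8513. For HRAS then MYC against HRAS the count of 19 became 4 under the filter, 3 with only the groups compared, 10 with the replicate block and 3 to 22 without 1 array. HRAS against MYC gave 10 under the filter, 24 with only the groups compared and 26 to 30 without 1 array. HRAS then MYC against HRAS+MYC gave 5 with only the groups compared and 0 to 3 without 1 array. HRAS+MYC against MYC gave 14 with only the groups compared and 7 to 11 without 1 array. MYC then HRAS against MYC gave 1 after a second quantile normalization, 1 with only the groups compared, 1 with the replicate block, 0 without HRAS replicate 3 and MYC replicates 4 and 5 together, and 0 to 2 without 1 array. HRAS+Bmi1 against HRAS gave 2 without those 3 arrays and 0 to 5 without 1 array. The other comparisons gave 0 to 0. Over all genes, only the groups compared gave 983 of 2495 for HRAS then MYC against HRAS, 2367 of 4074 for MYC then HRAS against MYC and 533 of 1178 for HRAS+Bmi1 against HRAS, which gave 2287 without the 3 arrays. Leaving out 1 array gave as few as 544 for HRAS then MYC against HRAS, 605 of 2405 for HRAS then MYC against HRAS+MYC, 1900 for MYC then HRAS against MYC and 199 for HRAS+Bmi1 against HRAS. Counts over all genes ranged between 98 and 1387 around 485 for the difference of the Bmi1 effects, 1 and 301 around 30 for MYC+Bmi1, 1 and 233 around 49 for MYC+Ezh2, and 10 and 43 around 22 for MYC then HRAS against HRAS+MYC. In HRAS+MYC against HRAS, 4 members that passed neither with all arrays nor under the alternative in question turned their sign: Ifitm3 (to between -0.36 and -0.02), Ifi35 (to between 0.04 and 0.18), Oasl1 (to between -0.20 and -0.002) and Bst2 (to 0.01). No member that passed turned its sign. Same-numbered arrays of HRAS+MYC and HRAS did not deviate together (correlations of -0.01689 to 0.06905 in 5 pairs), and the replicate block gave 26 members there. Over all 34 same-numbered pairs the correlations ran from -0.3014 to 0.3426. Such correlations cannot show whether same-numbered cultures share an origin, which the labels do not state. The filter left fewer members to test, and the cause of the other changes was not tested.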
